A study of Mus musculus with 12 samples.

Results

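The ionotropic and metabotropic receptor subunits for glutamate, GABA and glycine were followed in bulk RNA-seq of the mouse retina. Members were chosen by gene symbol alone: AMPA (Gria), kainate (Grik), NMDA (Grin) and metabotropic (Grm) glutamate receptors, GABA-A (Gabr) and GABA-B (Gabbr) receptors, and glycine receptors (Glra and Glrb). The rule found 50 of the 25124 genes in each of 2 tables of FPKM, a read level scaled to transcript length and to the mapped tags of the library. Members averaging 0.5 FPKM or more were tested, which were 36 among the 8 single-elevation libraries and 41 among the 4 libraries of the recurring table.

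All animals were wild-type C57BL/6J mice, and intraocular pressure (IOP) was raised in 1 eye to 30 mmHg for 1 h while the other eye was left untreated. In the single-elevation experiment, treated retinas (3mo IOP, 18mo IOP) and untreated contralateral retinas (3mo control, 18mo control) came from animals of 3 or 18 months and were taken 2 days later. In the recurring experiment, animals that were 3 months old at the outset had 4 elevations of the same eye at intervals of 2 weeks, and treated (4xIOP) and contralateral (4xIOP control) retinas were taken 2 days after the last. Each of the 6 groups held 2 libraries, control eyes came from animals with a treated fellow eye, and the whole retina was sequenced, so no value is specific to a cell type.

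Glutamate is the transmitter of photoreceptors, bipolar cells and ganglion cells, and GABA and glycine are the transmitters of horizontal and amacrine cells. AMPA, kainate and NMDA receptors are glutamate-gated cation channels built from 4 subunits, whereas GABA-A and glycine receptors are chloride channels built from 5. OFF bipolar cells receive the photoreceptor signal through AMPA and kainate receptors. ON bipolar cells receive it through mGluR6, the product of Grm6, which acts through the G protein Go to close the TRPM1 channel. GABA-A receptors of rho subunits sit mainly on bipolar cell terminals, and the alpha, beta and gamma subunits form the receptors of most other retinal neurons.

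Promoter sequences are shown for the members with the largest rises (Grm6, Grik3) and falls (Gabrg1, Glra3) with age among those called in both ageing comparisons below and listed in RefSeq. They run from 250 bases before to 50 bases after the transcription start in GRCm38.p6, 5' to 3', and 36 of the 50 members had such an entry. Capitals mark matches, on either strand, to 3 short motifs: TAATCC, the core bound by Otx2 and Crx, TAATTA, a homeodomain core, and GGGCGG, the GC box of Sp factors.
Grm6, chr11:50850435-50850734, plus strand: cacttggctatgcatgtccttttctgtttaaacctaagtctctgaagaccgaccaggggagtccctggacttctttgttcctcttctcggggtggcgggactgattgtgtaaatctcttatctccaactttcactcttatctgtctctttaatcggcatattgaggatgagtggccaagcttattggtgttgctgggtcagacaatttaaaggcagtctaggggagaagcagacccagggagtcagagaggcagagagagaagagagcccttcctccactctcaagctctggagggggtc
Grik3, chr4:125490446-125490745, plus strand: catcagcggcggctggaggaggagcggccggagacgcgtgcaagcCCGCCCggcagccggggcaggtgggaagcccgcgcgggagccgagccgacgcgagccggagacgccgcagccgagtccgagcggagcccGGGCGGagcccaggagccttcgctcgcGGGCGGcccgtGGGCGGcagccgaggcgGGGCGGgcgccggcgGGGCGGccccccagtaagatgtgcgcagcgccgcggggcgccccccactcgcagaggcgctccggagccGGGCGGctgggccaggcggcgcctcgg
Gabrg1, chr5:70842568-70842867, minus strand: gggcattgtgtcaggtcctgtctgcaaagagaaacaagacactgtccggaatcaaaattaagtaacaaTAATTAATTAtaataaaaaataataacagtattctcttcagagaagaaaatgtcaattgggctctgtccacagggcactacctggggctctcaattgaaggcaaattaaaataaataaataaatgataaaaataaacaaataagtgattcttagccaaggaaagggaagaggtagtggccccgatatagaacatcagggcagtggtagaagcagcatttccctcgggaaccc
Glra3, chr8:55940168-55940467, plus strand: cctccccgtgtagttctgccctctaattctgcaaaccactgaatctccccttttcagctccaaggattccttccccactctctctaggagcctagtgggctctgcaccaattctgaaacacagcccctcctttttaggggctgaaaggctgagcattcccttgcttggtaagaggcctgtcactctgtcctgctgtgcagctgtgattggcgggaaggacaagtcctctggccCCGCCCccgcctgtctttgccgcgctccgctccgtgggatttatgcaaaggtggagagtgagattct
The window of Grik3 was 82% G and C and held 7 GC boxes, that of Gabrg1 was 38.3% G and C and held 2 overlapping TAATTA cores, that of Glra3 held 1 GC box, and none of the 3 motifs was found in the Grm6 window. Of the 32851 promoters in the table, 35.7% held a GC box, 7.06% TAATCC and 5.29% TAATTA, and among the 36 members these stood in 20, 2 and 1 promoters. These are matches of letters in a window and not binding sites.

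Several libraries stood apart before any receptor was considered. Depth lay between 39766249 and 59454996 mapped tags, of which 44.2 to 71.5% fell in exons. The median FPKM of transcripts under 1000 bases over that of transcripts of 4000 bases or more was 1.89 and 4.70 in the 3mo control, 3.26 and 2.99 in the 3mo IOP, 1.28 and 1.21 in the 18mo control and 1.2 and 1.36 in the 18mo IOP libraries. Length representation therefore moved with age, and 3mo control replicate 2 was the most extreme. Receptor transcripts are long, with a median of 4021 bases against 2772 for all tested genes, so the ageing counts are also given with the length trend of every library removed. Within the 18-month groups, 35 of 36 tested members were lower in 18mo control replicate 1 than in replicate 2 (53.6% of all tested genes), and 34 of 36 were lower in 18mo IOP replicate 2 than in replicate 1 (45.0% of all tested genes). In these same libraries marker sums of several retinal neurons were lower than in their partners, at 40.9 and 41.1 FPKM against 91.9 and 101 for ganglion cells and 55.3 and 49.6 against 70.6 and 87.6 for amacrine cells, and those of bipolar cells and cones were lower too, while the rod sums were higher. The amacrine marker Tfap2b stood at 3.66 and 1.13 against 11.2 and 11.1 FPKM, and Gad1, which makes GABA, at 9.70 and 2.23, below the partner library in each group. The 4 horizontal cell markers summed to 4.01 and 2.15 FPKM, against 12.3 and 13.6 in their partners. Most of each sum was Calb1, at 3.18 and 1.70 FPKM in these libraries, 10.4 and 11.7 in their partners and 15.1 to 17.4 at 3 months. Lhx1 was also lower in these libraries, at 0.446 and 0.178 FPKM against 1.25 and 1.00, with 0.395 to 0.509 at 3 months. The part of these cells in the receptor values was not tested. The tables also differed in sex. All 8 single-elevation libraries contained Xist (47.6 to 172 FPKM) and next to no signal of 4 Y-linked genes, while the recurring libraries held at most 0.005 FPKM of Xist and 18.3 to 28.8 of the Y-linked Eif2s3y, so levels in the 2 tables are given side by side without a comparison.

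The level of the members spanned from nothing to about 50 FPKM, as the plot of members by library shows. The leading member of 9 of the 11 families was the same in each of the 12 libraries. Among AMPA subunits this was Gria2, whose product makes the channel nearly impermeable to calcium. Gria2 stood at 26.2 and 18.8 FPKM in the 3mo control, 13.3 and 20.3 in the 3mo IOP, 12.5 and 17.6 in the 18mo control and 19 and 8.84 in the 18mo IOP libraries. Its recurring values were 21.1 and 19.7 in the controls and 17.1 and 21.5 after 4 elevations, and these overlapped. Gria2 in the 18mo control libraries lay below both 3mo control libraries, a difference that did not pass the test (-0.57 ± 0.37, adjusted p = 0.238). Among NMDA subunits Grin1, the obligatory subunit, led with 6.49 and 4.78 FPKM in the 3mo control, 5.80 and 6.69 in the 3mo IOP, 4.96 and 10.5 in the 18mo control and 9.38 and 3.35 in the 18mo IOP libraries. Grin1 stood at 7.51 and 6.87 FPKM in the 4xIOP controls and at 7.33 and 8.01 in the 4xIOP libraries. The regulatory NMDA subunits Grin2a, Grin2b, Grin2c, Grin2d, Grin3a and Grin3b were all under 1 FPKM in the single-elevation table, and only Grin2d of these passed the filter there.

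**Figure D1:**
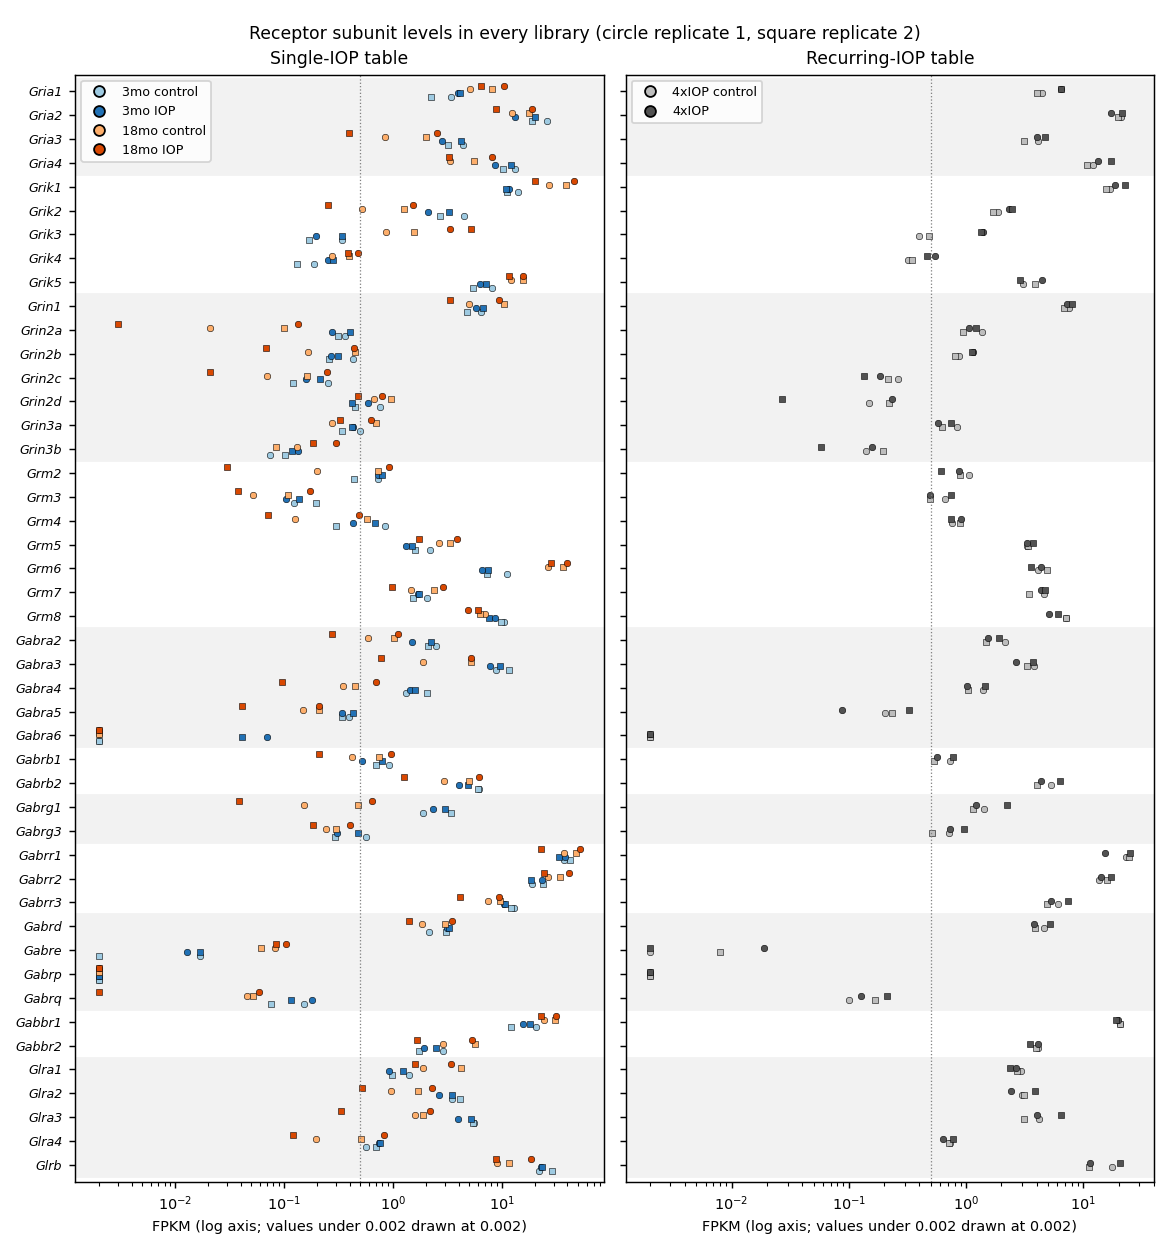
FPKM of 46 members (log axis) in each of the 12 libraries, with the single-elevation table on the left and the recurring table on the right; colours give the groups, circles replicate 1 and squares replicate 2, shaded bands separate families, and the dotted line marks 0.5 FPKM. Gabrp lies at 0 in every library, and the square of the 18mo IOP group is the lowest point for many members.

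Gabrr1 and Gabrr2, the neighbouring rho subunit genes on chromosome 4, were among the highest members. Gabrr1 measured 37.5 and 41.9 FPKM in the 3mo control, 38.1 and 33.7 in the 3mo IOP, 36.9 and 48.1 in the 18mo control and 51.7 and 22.9 in the 18mo IOP libraries. It led its family except in 18mo IOP replicate 2, where Gabrr2 stood at 24.5. Gabrr1 measured 23.1 and 24.4 in the 4xIOP controls and 15.4 and 25.2 in 4xIOP. Gabbr1, the GABA-binding subunit of the GABA-B receptor, measured 20.4 and 12.2, 15.8 and 18.1, 24.4 and 31.0, and 31.5 and 23.1 FPKM in the 4 groups of the single-elevation table and 19.1 to 20.6 in the recurring one. Gabrd, the subunit of extrasynaptic receptors, measured 2.15 and 3.08, 3.11 and 3.28, 1.83 and 3.03, and 3.46 and 1.41 FPKM, and 3.83 to 5.21 in the recurring table. Gabre and Gabrq reached at most 0.105 and 0.211 FPKM. Gabrp was listed at 0 throughout, which allows up to 0.0221 FPKM in the shallowest single-elevation library, and Gabra6, a subunit of cerebellar granule cells, reached at most 9 reads.

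In untreated eyes the 18-month retina held more Grm6, Grik1, Grik3 and Gria1 and less of 9 GABA-A, glycine, AMPA and kainate subunits than the 3-month retina. Calls required a change of 1 or more in log2(FPKM + 0.5) and a limma p, adjusted by Benjamini-Hochberg over all tested genes, of 0.05 or less. Folds given below are ratios of group mean FPKM and were not themselves tested. Bracketed changes, with their SE and adjusted p, are in log2(FPKM + 0.5), which gives smaller changes at low FPKM. By this rule 4 of the 36 tested members (11.1%) were called higher, where 11.6% of all 13731 tested genes were called higher, and 9 members (25%) were called lower, where 11.6% of all tested genes were. The share called higher is thus that of the background. The median change of the members was -0.30 on the log2 scale and that of all tested genes 0.16. In a bulk sample, fewer cells of a type and less RNA per cell cannot be told apart.

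In IOP-treated eyes of the same ages 3 members were called higher (8.33%, against 10.2% of all tested genes) and 4 lower (11.1%, against 11.6%), and all 7 were among those called in untreated eyes. The remaining 6, among them Glra2, Glrb, Gria1, Gria4 and Grik2, kept their direction without passing both criteria. Both comparisons use the same fit but no library in common. Treated and control eyes may come from the same animals. Neither the shared calls nor the counts over 4 libraries per age can therefore be taken as independent. Taking both treatments together, 8 members were higher in all 4 18-month than in all 4 3-month libraries (22.2%, against 32.3% of all tested genes) and 13 were lower (36.1%, against 24.0%), and 15 overlapped.

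**Figure D2:**
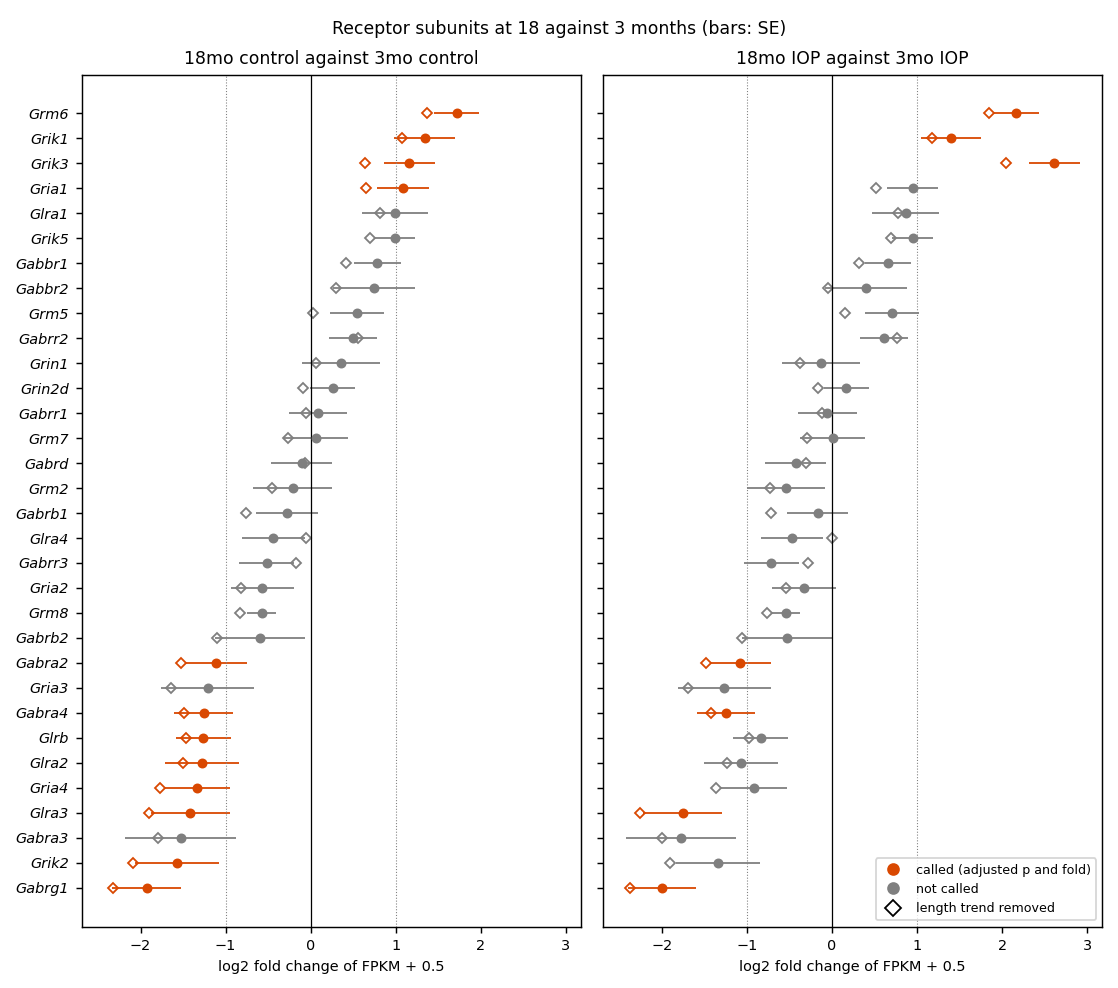
Change of 32 of the 36 tested members from 3 to 18 months in log2(FPKM + 0.5), in untreated (left) and IOP-treated eyes (right). Filled points and bars are the estimate and its standard error, orange marks called members, and open diamonds are the estimates with the length trend removed. Grm6 leads the untreated panel at 1.72 and Grik3 the treated one at 2.61, while Gabrg1 is lowest in both.

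Grm6, on chromosome 11 at 50850685 to 50866208 of mm10, encodes the receptor of ON bipolar cells. It measured 11.3 and 7.34 FPKM in the 3mo control and 6.64 and 7.51 in the 3mo IOP libraries, and 26.6 and 36.2 in the 18mo control and 39.5 and 28.2 in the 18mo IOP libraries. Every 18-month library was more than 2 times the highest 3-month one. The rise was 3.38-fold in untreated eyes (log2 fold change 1.72 ± 0.26 (SE), adjusted p = 0.00543 by limma) and 4.79-fold in treated eyes (2.17 ± 0.26, adjusted p = 0.0029). With the length trend removed it was 1.37 and 1.84. Grm6 was the only member called in every fit that left out 1 library in the untreated comparison, with adjusted p between 0.0012 and 0.0455.

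Grik1, on chromosome 16 at 87912416 to 88290265, encodes the kainate subunit GluK1 of OFF bipolar cells and led its family. It stood at 14.0 and 11.1 FPKM in the 3mo control, 11.6 and 11 in the 3mo IOP, 27.1 and 38.4 in the 18mo control and 45.7 and 20.3 in the 18mo IOP libraries, and in the recurring table between 15.7 and 22.8. The ages did not overlap, and Grik1 rose 2.61-fold in untreated (1.34 ± 0.35, adjusted p = 0.0186) and 2.92-fold in treated eyes (1.39 ± 0.35, adjusted p = 0.0182). Grik5, a kainate subunit that needs a partner to form a channel, passed the adjusted p but not the fold, at 0.99 ± 0.24 (adjusted p = 0.0142) and 0.95 ± 0.24 (adjusted p = 0.0181).

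Grik3 (chromosome 4, 125490696 to 125714173), the gene of the kainate subunit GluK3, was low at 3 months, with 0.341 and 0.168 FPKM in the control and 0.195 and 0.338 in the IOP libraries. It measured 0.868 and 1.55 in the 18mo control and 3.31 and 5.21 in the 18mo IOP libraries. Each step from 3-month to 18-month control and from there to 18-month IOP was free of overlap. In untreated eyes the rise was 4.76-fold (1.16 ± 0.30, adjusted p = 0.0171), but with the length trend removed it was 0.64 and no longer passed (adjusted p = 0.101). In treated eyes it was 16.0-fold (2.61 ± 0.30, adjusted p = 0.00258) and passed in the same fit at 2.05 (adjusted p = 0.0028). Grik3 has a transcript of 8959 bases, among the longest of the members.

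Gria1 (chromosome 11, 57013046 to 57330244), an AMPA subunit, stood at 3.4 and 2.22 FPKM in the 3mo control, 3.93 and 4.12 in the 3mo IOP, 5.06 and 8.10 in the 18mo control and 10.5 and 6.43 in the 18mo IOP libraries. It rose 2.34-fold in untreated eyes (1.09 ± 0.30, adjusted p = 0.0221) and was 2.10-fold higher in treated eyes. There it passed the adjusted p (0.0373) but missed the required change of 1 in log2(FPKM + 0.5), at 0.95 ± 0.30. With the length trend removed the values were 0.65 (adjusted p = 0.0504) and 0.51 (adjusted p = 0.111).

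The falls were led by Gabrg1, a GABA-A gamma subunit gene. Gabrg1 (chromosome 5, 70751047 to 70842617) measured 1.89 and 3.38 FPKM in the 3mo control, 2.32 and 2.98 in the 3mo IOP, 0.153 and 0.480 in the 18mo control and 0.639 and 0.039 in the 18mo IOP libraries. It fell 8.32-fold in untreated eyes (-1.93 ± 0.41, adjusted p = 0.00945) and 7.81-fold in treated eyes (-2.0 ± 0.41, adjusted p = 0.0096). Gabrg3 stayed under the filter at 0.184 to 0.569 FPKM.

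Gabra2 and Gabra4 fell with Gabrg1, and these genes are neighbours in the GABA-A cluster of chromosome 5 (70751047 to 72149572). Gabra2 went from 2.50 and 2.11 to 0.592 and 1.03 FPKM in control eyes and from 1.5 and 2.25 to 1.10 and 0.273 in treated eyes. Its falls were 2.84-fold (-1.11 ± 0.36, adjusted p = 0.0372) and 2.73-fold (-1.08 ± 0.36, adjusted p = 0.044). Gabra4 went from 1.31 and 2.05 to 0.351 and 0.449 FPKM in control eyes and from 1.42 and 1.59 to 0.702 and 0.095 in treated eyes, 4.20-fold (-1.26 ± 0.34, adjusted p = 0.0206) and 3.78-fold (-1.25 ± 0.34, adjusted p = 0.0235). The last gene of that cluster, Gabrb1, overlapped between the ages (-0.28 ± 0.36). Gabra5 and Gabrg3, neighbours on chromosome 7, were not tested.

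Of the 5 glycine receptor genes 3 fell in untreated eyes. Glrb (chromosome 3, 80843599 to 80912118), the beta subunit that anchors the receptor at synapses and the highest member of the family, went from 21.8 and 28.9 to 8.93 and 11.6 FPKM (-1.26 ± 0.32, adjusted p = 0.0165). In treated eyes Glrb was at 22.9 and 23.4 against 18.4 and 8.76 (-0.84 ± 0.32, adjusted p = 0.0659), and in the recurring table at 17.5 and 11.2 against 11.5 and 20.6. Glra3 (chromosome 8, 55940418 to 56130070) went from 5.51 and 5.45 to 1.59 and 1.90 FPKM in control (-1.42 ± 0.46, adjusted p = 0.0371) and from 3.92 and 5.26 to 2.18 and 0.334 in treated eyes (-1.76 ± 0.46, adjusted p = 0.0201). Glra2, on the X chromosome, went from 3.47 and 4.17 to 0.952 and 1.68 FPKM (-1.27 ± 0.43, adjusted p = 0.0424) and from 2.63 and 3.49 to 2.26 and 0.525 (-1.07 ± 0.43, adjusted p = 0.0772). Glra1, the alpha subunit of the spinal cord, had the opposite sign at 0.99 ± 0.39 and was not called (adjusted p = 0.0686), and Glra4 was not called at -0.44 ± 0.37.

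Gria4 and Grik2 were the members called lower in untreated eyes among the glutamate receptors. Gria4 (chromosome 9, 4417893 to 4796234), an AMPA subunit, went from 13.1 and 10.3 to 3.34 and 5.51 FPKM in control eyes (-1.34 ± 0.39, adjusted p = 0.026) and from 8.63 and 12.1 to 8.04 and 3.28 in treated eyes (-0.92 ± 0.39, adjusted p = 0.0895). Grik2 (chromosome 10, 49093681 to 49788766), the kainate subunit GluK2, went from 4.46 and 2.71 to 0.518 and 1.27 FPKM (-1.57 ± 0.49, adjusted p = 0.0322) and from 2.10 and 3.29 to 1.54 and 0.253 (-1.34 ± 0.49, adjusted p = 0.057). Both were without overlap in either comparison. In the 8 falling members given here, as the plot of called members shows, 18mo control replicate 1 and 18mo IOP replicate 2 were the lowest libraries.

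**Figure D3:**
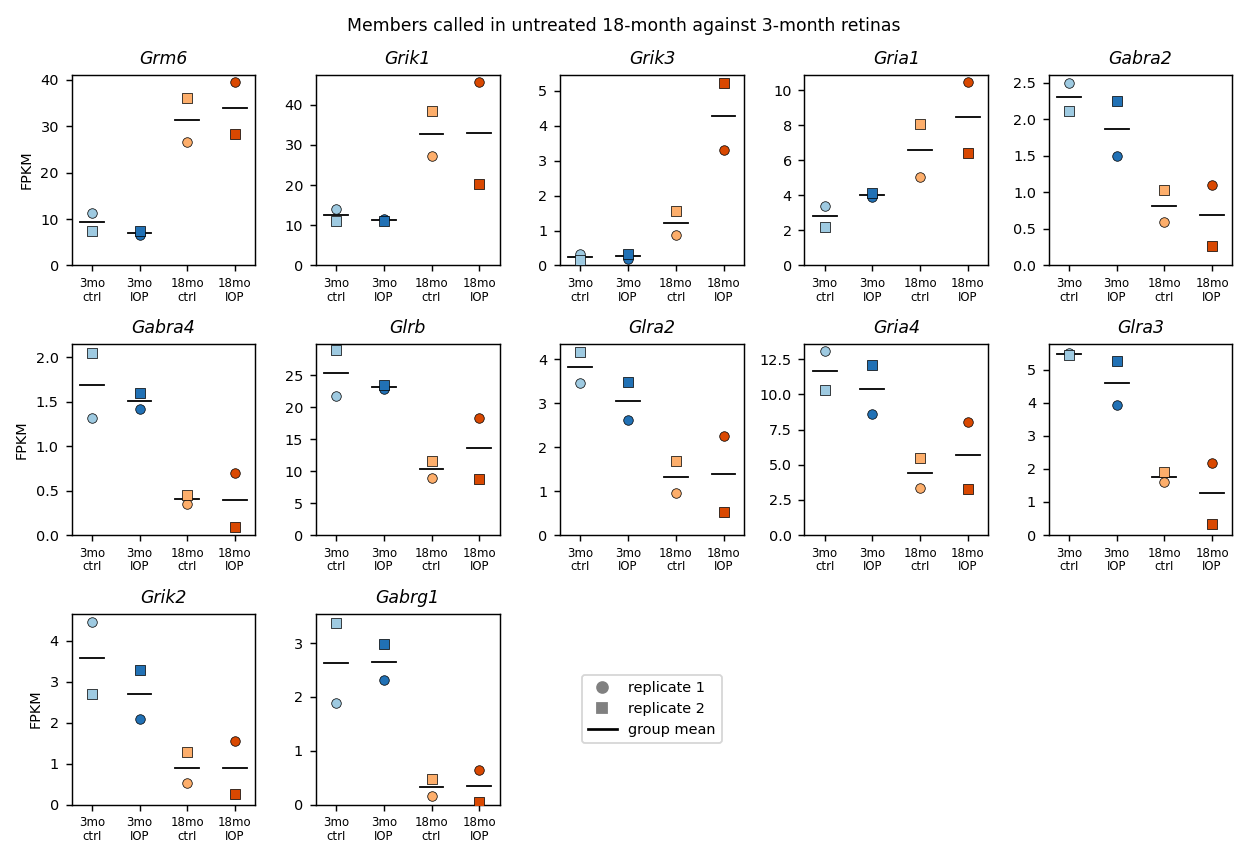
FPKM of 12 of the 13 members called in untreated 18-month against 3-month retinas, 1 panel each, with linear axes from 0; circles are replicate 1, squares replicate 2 and bars the mean of 2 libraries. The first 4 panels are the rises and the other 8 the falls, and in each fall 18mo control replicate 1 and 18mo IOP replicate 2 are the lowest points.

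The other tested members were not called with age. Grm8, a presynaptic inhibitory receptor, passed the adjusted p in both comparisons with falls of less than 2-fold (-0.58 ± 0.17, adjusted p = 0.0282, and -0.55 ± 0.17, adjusted p = 0.0365). Gabbr1 passed it in untreated eyes at 0.78 ± 0.27 (adjusted p = 0.0469). Gabra3 and Gria3, both X-linked, differed by -1.53 ± 0.65 and -1.21 ± 0.54 in untreated eyes without passing (adjusted p = 0.0851 and 0.0982). With the length trend removed both were called, at -1.79 (adjusted p = 0.0466) and -1.64 (adjusted p = 0.026). Gria2, Grin1, Grin2d, Grm2, Grm5, Grm7, Gabrb1, Gabrb2, Gabrr1, Gabrr2, Gabrr3, Gabrd and Gabbr2, lay between -0.60 and 0.74 in untreated eyes.

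Of the 14 members under the filter, Grin2a had the widest gap in FPKM between the ages, a choice made after its values were seen. By ratio Gabre was further apart, at 0 to 0.017 FPKM at 3 months and 0.061 to 0.105 at 18 months. Values of Grin2a were 0.277 to 0.402 FPKM in the 3-month and 0.003 to 0.135 in the 18-month libraries. In the fit without a filter Grin2a passed the adjusted p (0.0287) and not the fold, at -0.58 on the log2(FPKM + 0.5) scale, which understates changes of values this low. Grm3, Grm4, Grik4 and Gabra5 are among the low members shown in the plot of members.

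The balance between subunits was described as ratios within a library, without a test. Each ratio below sets a member with higher values at 18 months over one with lower values. Its split by age follows from those changes and is no separate result. Gria1 to Gria4, of 5347 and 5428 bases and thus nearly matched in length, was 0.259 and 0.215 in the 3mo control, 0.455 and 0.340 in the 3mo IOP, 1.52 and 1.47 in the 18mo control and 1.31 and 1.96 in the 18mo IOP libraries. The ratio was above 1 at 18 months in all 4 libraries and below 0.5 at 3 months in all 4, including the libraries that stood apart. Grm6 to Grm8 lay between 0.741 and 1.08 at 3 months and between 3.77 and 8.03 at 18 months, and Grm8 was the leading metabotropic member in 3 of 4 3-month libraries and all 4 of the recurring table. In the recurring table Grm8 stood at 7.16 and 7.19 FPKM in the controls and 5.12 and 6.08 in 4xIOP, with Grm6 at 4.14 and 4.94 and at 4.40 and 3.56. Glra1 to Glra3, of 2378 and 6543 bases, lay between 0.179 and 0.257 at 3 months and between 1.19 and 4.74 at 18 months.

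**Figure D4:**
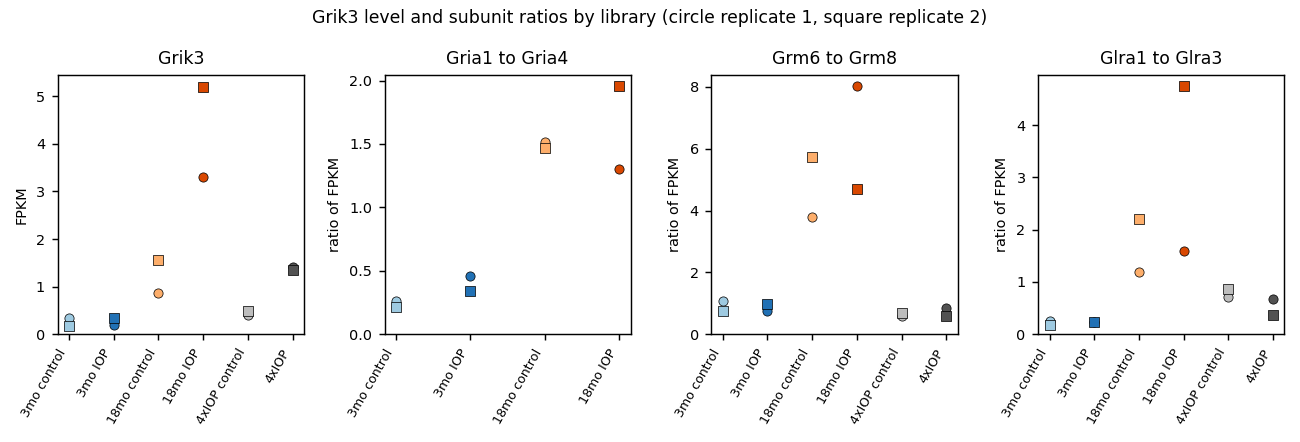
Grik3 in FPKM and 3 subunit ratios by library, linear axes from 0, circles replicate 1 and squares replicate 2. Gria1 to Gria4 is shown for the single-elevation table only, since the recurring table lists other transcripts of both genes. In each panel the 18-month points lie above those of the 3mo control and 3mo IOP libraries, and the recurring points come from a separately normalized table.

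Removing the trend with transcript length made all 4 called rises smaller and all 9 called falls larger in untreated eyes. Among all tested genes the median change with age in untreated eyes was -0.88 for transcripts under 1000 bases and 0.46 for those of 4000 to 6000 bases, as the plot against length shows. With the length trend removed, 2 members were called higher (Grm6 and Grik1, against 7.34% of all genes) and 11 lower (against 9.02%) in untreated eyes, and 3 higher (against 7.46%) and 11 lower (against 7.42%) in treated eyes. Of the 13 members called in untreated eyes 11 were called in both fits, and Gria1 and Grik3 were the exceptions. With the trend with GC content removed as well, 1 member was called higher (against 5.11% of all genes) and 3 lower (against 4.97%) in untreated eyes. With the short-to-long ratio of each library as a covariate, no gene of the 13731 was called in either comparison, while 2965 and 2540 had an unadjusted p under 0.05, and the covariate and age cannot be told apart.

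**Figure D5:**
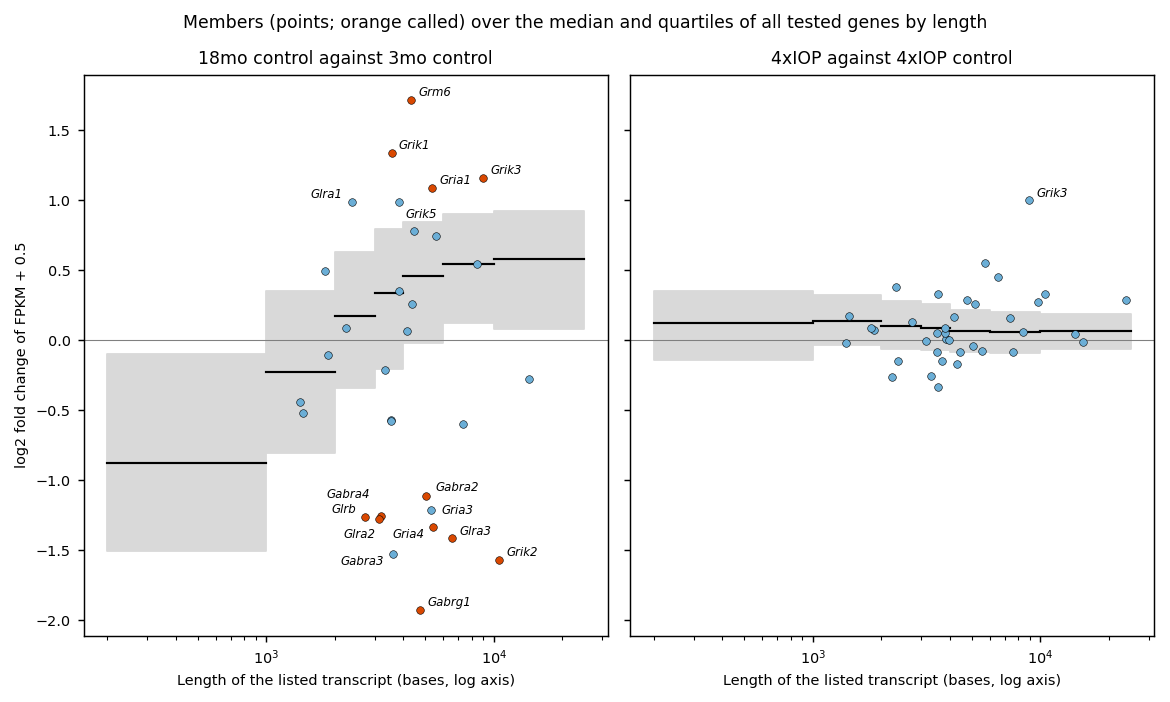
Log2 fold change of tested members against the length of the listed transcript (log axis), for 18mo control against 3mo control (left) and 4xIOP against its control (right). Points are members, orange where called, black lines and grey boxes are the median and quartiles of all tested genes in 7 length classes. The falling members lie below the grey boxes at 2722 to 10560 bases on the left, and only Grik3 is near 1 on the right.

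Leaving out single libraries removed many of these calls, while the falls themselves stayed in every such fit. In untreated eyes the 9 called falls lay between -2.28 (Gabrg1) and -0.87 (Gabra2) over the 4 fits that leave out 1 library of this contrast, and Glra3 ranged from -1.51 to -1.32. In treated eyes the 4 called falls were smallest without 18mo IOP replicate 2, at -0.91 for Glra3, -0.74 for Gabra4 and -0.55 for Gabra2, against -1.76, -1.25 and -1.08 with it, and at -1.46 for Gabrg1. Calls over all genes changed in the same fits, so each count is given with the share of all tested genes called lower. Without 18mo control replicate 1 no member was called lower in untreated eyes (5.75% of all genes), and without 3mo control replicate 2 none was either (5.67%). Leaving out 18mo control replicate 2 gave 1 member (4.12%) and 3mo control replicate 1 gave 3 (15.2%). In treated eyes 17 members were called lower without 18mo IOP replicate 1 (10.5%) and 1 without 18mo IOP replicate 2 (8.32%). None was called lower without 3mo IOP replicate 1 (1.94%) or replicate 2 (2.34%). Without both 18mo control replicate 1 and 18mo IOP replicate 2, no member was called lower in untreated (0.808% of all genes) or treated eyes (1.66%), where the called falls measured -1.63 (Gabrg1) to -0.87 (Gabra2) and -1.46 (Gabrg1) to -0.55 (Gabra2). Each 18-month group is then 1 library, assumed to vary like the 3-month groups, from which alone the spread comes. In that fit Grm6 (1.93) and Grik1 (1.59) were called higher in untreated (1.84% of all genes) and Grm6 (2.40), Grik3 (2.32) and Grik1 (1.97) in treated eyes (4.32%). These fits have 2 or 3 residual degrees of freedom.

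After a single IOP elevation no receptor gene was called at either age. At 3 months 0 of 36 members passed in limma, where 0.575% of all tested genes were called, and none had an unadjusted p under 0.05. The changes lay between -0.42 and 0.47, with a median of -0.13 against 0.13 for all genes. At 18 months 0 of 36 passed, where 0.124% of all genes did, and 1 member, Grik3, had an unadjusted p under 0.05. The 18-month changes lay between -0.59 and 1.48, with a median of -0.11 against 0.09. This median rested on single libraries, running from -0.67 to 0.45 when each was left out in turn.

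Grik3 had the largest change of the members at 18 months, from 0.868 and 1.55 FPKM in control to 3.31 and 5.21 in IOP libraries, 3.52-fold (1.48 ± 0.30, adjusted p = 0.115). At 3 months it was 0.341 and 0.168 against 0.195 and 0.338, that is 1.05-fold (0.03 ± 0.30, adjusted p = 0.999). The interaction of IOP with age for Grik3 was 1.45 ± 0.42, with an unadjusted p of 0.0088 and an adjusted p of 1.00, so the difference between ages was not shown. None of the 13731 genes passed the interaction in limma (0.0%), and 218 genes had an unadjusted p under 0.05. Leaving out both 18-month libraries that stood apart gave 0.89 (adjusted p = 1.00) for Grik3 at 18 months. With the replicate numbers crossed as a block, a pairing chosen after seeing the data, Grik3 was called at the same 1.48 (adjusted p = 0.0316 by limma), in a fit that called 2.17% of all genes higher. Over all alternatives its adjusted p ran from 0.0316 to 1.00. Markers of microglia and leukocytes summed to 36.3 and 41.2 FPKM in the 18mo control and 109 and 54.6 in the 18mo IOP libraries. At 3 months, where Grik3 overlapped between the groups, this sum was also higher in both IOP libraries (up to 31.0) than in both controls (up to 14.6). The 4 blood markers summed to 122 and 328 FPKM in the 18mo control and 41.2 and 33.4 in the 18mo IOP libraries. Rod marker sums went from 17791 and 15841 to 12045 and 14448 FPKM between the same groups. Cone sums went from 1066 and 1329 to 947 and 509, and lens sums from 2.44 and 3.82 to 4.84 and 18.3. Myelin marker sums went from 8.37 and 8.30 to 7.65 and 6.59. The part of these cells in the change of Grik3 was not tested.

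After recurring IOP no member was called either, with 0 of 41 against 6.15% of all 13718 tested genes. By the adjusted p alone 1 member passed, where 7.95% of all genes did, and this was Grik3. It stood at 0.396 and 0.483 FPKM in the 4xIOP controls and at 1.41 and 1.34 in 4xIOP, 3.13-fold higher and without overlap. Its log2 fold change was 0.999 ± 0.23 (adjusted p = 0.0164 by limma), just under the threshold of 1, and 0.93 (adjusted p = 0.0413) with the length trend removed. Leaving out each library in turn gave 0.93 to 1.07, with adjusted p of 0.0566 to 0.155. Gria1, at 4.43 and 4.04 against 6.45 and 6.40 FPKM, was the other member with an unadjusted p under 0.05 (0.55 ± 0.19, adjusted p = 0.136). The rest lay between -0.34 and 0.45.

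No member was called, while markers of other tissue and of retinal cells did move in the recurring experiment. The 6 microglia and leukocyte markers summed to 5.58 and 6.00 FPKM in the controls and 66.0 and 59.8 in 4xIOP, with 5 called higher. The 4 lens markers summed to 4.03 and 0.351 against 44.0 and 79.1, and all 4 were called higher. Among retinal cells, 3 of 5 cone markers were called lower. Rod markers summed to 9648 and 10100 FPKM in the controls and 4768 and 7162 in 4xIOP, with none called. Muller glia markers summed to 715 and 747 against 363 and 452, with none called, while their median change was 0.42. The pigment epithelium markers summed to 25.3 and 34.7 FPKM against 2.60 and 5.64, and all 3 tested were called lower. Their part in the value of Grik3 was not tested.

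Lists of genes that work with the receptors are given by their counts, to be read against the shares of all genes called with age (11.6% higher and 11.6% lower in untreated eyes, 10.2% and 11.6% in treated eyes). The mGluR6 cascade of ON bipolar cells had 6 of 10 listed genes called higher and none lower in untreated eyes, with a median of 1.04 against 0.16 for all genes, and 3 of 10 were called with the length trend removed. The largest were Gpr179, which anchors the RGS proteins (1.87, adjusted p = 0.0067), the channel Trpm1 (1.59, adjusted p = 0.00628), the matrix protein gene Nyx (1.43, adjusted p = 0.0134) and Rgs11 (1.19, adjusted p = 0.0115). In treated eyes 4 of 10 were called higher, Gpr179 (2.14), Rgs11 (1.46), Nyx (1.43) and Trpm1 (1.37). Trpm1 measured 23.2 and 15.4 FPKM in the 3mo control and 48.5 and 69.1 in the 18mo control libraries. After recurring IOP 1 of 10 was called, Gnb3, from 86.6 and 90.0 to 262 and 343 FPKM (1.76, adjusted p = 0.00575).

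Of 11 genes for glutamate release and clearance, 2 were called higher and 1 lower with age in untreated eyes, and 1 higher and 2 lower with the length trend removed. Glul, glutamine synthetase of Muller glia (1.39), and the transporter Slc1a7 (1.07) rose, and Slc17a6, the vesicular transporter VGLUT2 of ganglion cells, fell from 9.19 and 11.1 to 0.541 and 2.4 FPKM (-2.61, adjusted p = 0.0153). In treated eyes Glul (1.58) and Slc1a3 (1.22) rose and Slc17a6 fell (-2.75). After recurring IOP Slc1a1 rose (1.09, adjusted p = 0.00723), but with the length trend removed no gene of this list was called higher and 1 was called lower. Of 9 genes for GABA and glycine synthesis and transport, the transporter Slc6a11 was called higher with age (1.51 and 2.05), Abat higher in treated eyes (1.13) and Slc6a13 lower (-2.56 and -2.74), and with the length trend removed 1 was called higher and 1 lower in each comparison.

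Among 15 auxiliary subunits, of which 13 were tested, Shisa9 (1.22) and Lhfpl4 (1.16) rose and Neto2, a partner of kainate receptors, fell (-1.46) in untreated eyes, and Shisa9 (1.63) and Neto2 (-1.15) were called in treated eyes. With the length trend removed 0 were called higher and 1 lower in untreated eyes. Of 16 postsynaptic scaffold genes 3 were called higher in untreated eyes, Dlg4 (1.38), Nlgn2 (1.27) and Shank2 (1.23), and 3 in treated eyes, Shank2 (1.21), Dlg4 (1.08) and Grip2 (1.01). With the length trend removed 1 scaffold gene was called higher and 1 lower in untreated eyes, and 0 higher and 1 lower in treated eyes. Neither of these lists had a called gene after a single IOP elevation at either age or after recurring IOP.

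Markers of some retinal cell types differed with age, and the sums of others overlapped. Of 9 ganglion cell markers 6 were called lower in untreated and 8 in treated eyes, and their sum was 364 to 695 FPKM in the 3-month and 40.9 to 101 in the 18-month libraries. Of 6 tested amacrine cell markers 1, Chat, was called lower, and the sum was 69.2 to 82.5 at 3 months and 49.6 to 87.6 at 18 months. Of 7 bipolar cell markers 3 were called higher (Bhlhe23 and Prkca among them) in untreated and 2 in treated eyes, while the sums overlapped at 296 to 539 and 319 to 568. Of 5 Muller glia markers 3 and 4 were called higher. Of 6 microglia and leukocyte markers 3 and 4 were called higher, with sums of at most 31.0 FPKM at 3 months and 36.3 to 109 at 18 months. Rod markers summed to 21118 to 24155 FPKM at 3 months and 12045 to 17791 at 18 months, with 1 of 8 called lower in each comparison. Cone sums overlapped at 883 to 1355 and 509 to 1329 FPKM, with 1 of 5 markers called higher in untreated and none in treated eyes. Neither of the 2 tested horizontal cell markers was called, and the list summed to 16.2 to 18.2 and 2.15 to 13.6 FPKM. Markers of the retinal pigment epithelium, a neighbouring tissue, summed to 103 to 296 FPKM at 3 months and 1.40 to 7.90 at 18 months. No marker of the neuronal or Muller glia lists was listed at 0 in a library. Their part in the changes of the receptor genes was not tested.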

How the data were processed

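Bulk retinal poly(A) RNA was sequenced in 12 libraries, 2 in each of 6 groups. The deposited FPKM values were made by the authors with STAR 2.7.8a alignment to mm10 and HOMER counting over exons of 1 transcript per gene, and the submitters' notes also name DESeq 1.24.0 and DESeq2. The 2 tables were normalized separately and were tested separately; 44 members had the same transcript in both. From the deposited values, log2(FPKM + 0.5) was fitted with limma 3.58.1 in R 4.3.3, with groups as terms and an intensity trend, over all genes that averaged 0.5 FPKM or more, and p was adjusted by Benjamini-Hochberg. In a further fit a spline of each library on transcript length (5 degrees of freedom) was removed. Depth was 39766249 to 59454996 tags, and whole reads could be recovered from all checked values within 0.04 reads. Limits for a value of 0 are 3 reads, for counting error only. The study describes the 2 libraries of a group as biological replicates made from single eyes, and the labels do not say which treated and control eyes share a mouse. The fits were checked on simulated data with independent noise per gene. These held no length trend and no shift of a whole library, so the check does not cover either. Members were named with full values where called or leading their family, except that the results of a few genes are not reported here although they enter all counts, and the called genes with the largest changes were named for related lists, at most 4 a list and comparison. The members and lists were chosen with earlier results of these data known. Same-numbered libraries did not deviate together (correlations of -0.530 to -0.121), so the numbers were not taken as pairs. Alternatives covered pseudocount, filter, scaling, voom, length and GC trends, replicate block and left-out libraries.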

Additional observations from a re-analysis of the deposited data

How the results depend on the processing

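No called value changed sign under an alternative, but medians over the members did: leaving out 1 library gave -0.90 to 0.18 for ageing in IOP-treated eyes, -0.67 to 0.45 for single IOP at 18 months, -0.50 to 0.53 for the interaction and -0.06 to 0.22 for recurring IOP. The recurring median of 0.07 became -0.08 with the length trend removed or after quantile scaling, -0.07 with length and GC trends removed and -0.03 by median-of-ratios, and the interaction median of -0.01 also turned positive with the length trend removed and after quantile or median-of-ratios scaling. Counts of called members are given with the share of all tested genes called in the same direction and fit. In untreated eyes 4 members were called higher with age (11.6%), against 1 with length and GC trends removed (5.11%), 2 with the length trend removed (7.34%) or a pseudocount of 1 (8.12%), 0 with the short-to-long covariate (0 genes), 2 without 18mo control replicate 1 and 18mo IOP replicate 2 (1.84%), and 1 without 3mo control replicate 2 and with the length trend removed (4.33%). The 9 called lower (11.6%) became 3 with length and GC trends removed (4.97%), 3 without a filter (6.99%), 5 with a pseudocount of 0.1 (12.5%), 0 with the covariate (0 genes), 0 without those 18-month libraries (0.808%), and 3 without 3mo control replicate 2 and with the length trend removed (4.53%). Leaving out 1 library gave 1 to 6 higher (4.44 to 19.1%) and 0 to 3 lower (4.12 to 15.2%). In IOP-treated eyes the 3 called higher (10.2%) became 5 by adjusted p alone (23.0%) or by voom (13.4%) and 0 with the covariate (0 genes). The 4 called lower (11.6%) became 11 with the length trend removed (7.42%), 1 when a mean of 2 FPKM was required (12.6%), 2 with a pseudocount of 1 (10.1%), 8 after quantile scaling (11.1%), and 0 with the covariate (0 genes) or without both 18-month libraries (1.66%). Leaving out 1 library gave 2 to 6 higher (2.92 to 9.98%) and 0 to 17 lower (1.94 to 10.5%). After recurring IOP 1 member was called higher by adjusted p alone (6.85%), with a pseudocount of 0.1 (6.18%) or by voom (6.65%), against 0 (5.45%). Several of these alternatives were chosen after seeing the data, namely both fits that combine choices and the crossed pairing. The cause of the differences was not tested, except that left-out libraries leave fewer residual degrees of freedom.

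With the replicate number as a block, 4 members were called higher (11.6% of all genes) and 6 lower (11.3%) in untreated eyes, 3 (10.2%) and 3 (11.3%) in IOP-treated eyes, and 0 in the IOP comparisons and the interaction. With the numbers crossed, 1 member, Grik3, was called higher at 18 months (2.17% of all genes, against 0.117% without the block) and 0 in the other IOP comparisons.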
